A study of Mus musculus with 12 samples.

Results

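Lipid-laden monocyte-derived macrophages (LL-MDM, 3 libraries) were compared with monocyte-derived macrophages without lipid load (MDM, 3 libraries), 6 of the 12 ATAC-seq libraries of the series. Every library was made from FACS-sorted nuclei of mouse brain tumours of the genotype Ink4a/ArfKO, PDGFB, in which platelet-derived growth factor B was enforced in Nestin-positive progenitors on an Ink4a/Arf knockout background. MDM and LL-MDM carry the same tumour genotype and differ in lipid load. The other 6 libraries, microglia without (MG) and with lipid load (LL-MG, 3 each), were used only for the shared estimate of spread and to ask where the difference in MDM departed from that in microglia. No label states the sorting markers, the age of the mice or how many mice went into a library.

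The 6 libraries were taken by the names of their columns in the deposited count table. The sample titles name another group for 8 of the 12 libraries. They call MDM 2 microglia, LL-MDM 1 and LL-MDM 3 microglia, and LL-MDM 2 MDM without lipid load. Sall1, which encodes a transcription factor of microglia, was at 0.868, 1.07 and 0.488 CPM in MDM and 11.9, 9.79 and 6.19 CPM in LL-MDM. In MG it was at 74.2, 39.8 and 52.8 CPM (read counts scaled to library size with edgeR's TMM factors). With groups by column name, MDM and MG therefore lay far apart at Sall1, and LL-MDM lay between them. Every result below uses the column names, except where groups by title are named.

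The titles also carry a number after the letters mn, and each number stands in 1 title of each of the 4 titled groups. What the number means is not given in the sources used here, and it may name the mouse. By column name MDM 1 and MDM 2 carry 547, MDM 3 and LL-MDM 1 carry 546, and LL-MDM 2 and LL-MDM 3 carry 545. The number and lipid load therefore nearly coincide, and only 546 stands in both groups, so their parts in the difference can barely be told apart. The number was added to the edgeR fit as a block after the data were seen, and its counts are given beside most lists as those with the number block. They are not given for mast cell and basophil markers or for cytokine and NF-kB genes.

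ATAC-seq measures where the Tn5 transposase can reach the DNA, so a value is the accessibility of a region and not the expression of a gene. Macrophages that take up myelin or cell debris store the lipid in droplets. Cholesterol released inside the cell is oxidised to ligands of the nuclear receptors LXR, which pair with RXR and switch on the exporters Abca1 and Abcg1 and the carrier Apoe. Lipid-associated macrophages are known for Gpnmb, Spp1, Trem2, cathepsins and Lpl. Presentation of antigen on MHC class II is switched on by the coactivator Ciita and is most prominent in dendritic cells and activated monocyte-derived cells.

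Counts were available in 117835 regions of mm10 with a median width of 179 bp, of which 77737 passed the filter on low counts. A gene locus is the sum of all regions that touch a protein-coding gene or lie up to 5 kb from it, which gave 15540 tested loci. Region totals were 6341183 to 18938222 counts in MDM and 1162969 to 7390521 in LL-MDM, with LL-MDM 1 the shallowest of all. A tested region held a median of 33 to 109 counts per MDM library and of 6, 40 and 16 counts in LL-MDM 1, 2 and 3. Region identifiers name a call in MDM for 105173 regions and in LL-MDM for 50422, so the set of regions was drawn mostly from MDM. Depth and lipid load moved together, and their parts in the counts of calls were not tested beyond thinning all libraries to the smallest total. Correlations of log2 CPM were 0.971 to 0.982 among MDM, 0.875 to 0.952 among LL-MDM and 0.815 to 0.869 between the groups. In bulk libraries, fewer cells with an open region and less opening per cell cannot be told apart.

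Of the 77737 regions, 22969 (29.5%) passed the test: 12005 (15.4%) were higher in LL-MDM and 10964 (14.1%) were lower at an adjusted p under 0.05 (edgeR quasi-likelihood test, Benjamini-Hochberg over all regions). The median absolute log2 fold change of the called regions was 1.12 for those higher and 1.15 for those lower. Of the 15540 gene loci, 1823 (11.7%) were higher and 1899 (12.2%) were lower, with median absolute log2 fold changes of 0.52 and 0.48. The median log2 fold change was -0.004 over all loci and 0.015 over all regions. Thinned to 1162969 counts a library, 2709 regions were higher and 2463 lower, and 792 loci were higher and 871 lower. Without LL-MDM 2, the deepest LL-MDM library, the regions came to 5794 higher and 5956 lower, and the loci to 1047 and 1149. Without LL-MDM 3 the loci came to 1172 and 1113, and without MDM 1 to 1171 and 1234. With the number block 2413 regions were higher and 1521 lower, and 234 loci were higher and 274 lower. Of 159 named calls, 72 were lost with this block, all of them gene loci, and none turned direction. Those lost include Ciita (-0.63, adjusted p = 0.133), Abca1 (0.66, adjusted p = 0.0545), Apoe (0.59, adjusted p = 0.0998), Trem2 (0.32, adjusted p = 0.45) and Plin2 (0.47, adjusted p = 0.203).

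Regions inside gene bodies were higher in LL-MDM in 18.0% and lower in 14.8% of 34454 cases, and intergenic regions in 14.7% and 17.7% of 26782. Within 1 kb of a listed RefSeq start, 10.3% of 14286 regions were higher and 5.62% lower. Among 1206 tested regions whose identifier names LL-MDM but not MDM, 86.7% were higher. That share describes how the regions were named, since the same libraries gave the calls. Of 25917 regions named for MDM but not for LL-MDM, 24.6% were lower and 3.97% were higher. On the X chromosome 9.69% of 1269 regions were higher and 7.49% lower.

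Of 13 genes of MHC class II, 8 were lower in LL-MDM and 0 higher, against 12.2% lower among all loci, and the median log2 fold change was -0.83 against -0.004. The count was 6 lower and 0 higher with the number block. H2-Aa, the alpha chain of the I-A molecule (chr17:34282744-34287823), was at 205, 207 and 213 CPM in MDM and 58.8, 52.8 and 45.9 CPM in LL-MDM. The 3 LL-MDM libraries lay far below the 3 MDM libraries, giving a log2 fold change of -2.01 ± 0.10 (adjusted p = 3.32e-11). H2-Eb1, a beta chain of the I-E molecule (chr17:34305867-34316674), was at 238, 246 and 255 CPM in MDM and 71.6, 76.2 and 58.7 CPM in LL-MDM (-1.83 ± 0.10, adjusted p = 3.14e-10). H2-Ab1, the partner chain of H2-Aa, was at 315, 306 and 321 CPM in MDM and 124, 141 and 111 CPM in LL-MDM (-1.31 ± 0.09, adjusted p = 4.89e-09). Cd74, the invariant chain that guards the peptide groove (chr18:60803849-60812652), was at 213, 209 and 226 CPM in MDM and 87.8, 98.2 and 86.03 CPM in LL-MDM (-1.23 ± 0.08, adjusted p = 2.78e-09). None of these genes showed overlap between the groups.

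The peptide-loading chains followed in part. H2-DMb1 fell from 65.7 ± 4.24 to 29.6 ± 2.52 CPM (mean ± SD, n = 3; -1.19 ± 0.12), H2-DMb2 from 122 ± 12.3 to 70.9 ± 10.2 (-0.83 ± 0.13) and H2-Ob from 108 ± 5.48 to 59.2 ± 9.56 (-0.83 ± 0.12). The adjusted p of these 3 genes reached 0.000235 at most. H2-DMa (-0.15, adjusted p = 0.163) and H2-Oa (-0.20, adjusted p = 0.425) did not pass the test. Ciita itself was at 107, 92.99 and 99.02 CPM in MDM and 60.5, 67.2 and 56.7 CPM in LL-MDM (-0.67 ± 0.12, adjusted p = 0.000525). Its partners in the enhanceosome did not pass the test: Rfx5 was at -0.10, Rfxank at -0.02 and Rfxap at -0.02 on the log2 scale. H2-DMb1 and H2-DMb2 share 69.9% and 92.8% of their counts with neighbouring genes.

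Within these loci the fall was not limited to 1 site. All 7 tested regions of H2-Aa, all 7 of H2-Ab1, all 9 of H2-Eb1 and all 6 of Cd74 were lower in LL-MDM, with percent called among all regions at 14.1 for this direction. At Ciita 5 of 12 regions were lower and 0 higher. At H2-Eb1 the log2 fold changes ran from -3.23, 400 bp after the start, to -1.06, 4034 bp after it. The region over the start itself (chr17:34305648-34306119) was at 70.7 ± 5.33 CPM in MDM and 16.5 ± 3.55 in LL-MDM (mean ± SD, n = 3; -2.05 ± 0.15). The count of 8 lower class II loci was the same without any 1 of the 6 libraries and in thinned libraries. With the libraries grouped by their titles it was 4.

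The 3 promoters in each direction whose regions had the smallest p are shown because the class II ones hold known elements of this system. Class II promoters are known to carry X and Y boxes, and the Y box is an inverted CCAAT bound by NF-Y. Each sequence is the 250 bases before the start of the gene (RefSeq, GRCm38.p6, the assembly of mm10), written 5′ to 3′ on the strand of the gene. Capitals mark matches on either strand to the NF-Y element CCAAT, the E-box CACGTG, the AP-1 element TGANTCA, the PU.1 element GAGGAAG, the interferon response element, the nuclear receptor half-site AGGTCA and the cyclic AMP element TGACGTCA. The 3 promoters lower in LL-MDM were those of H2-Eb1 (plus strand, chr17:34305617-34305866), H2-Aa (minus strand, chr17:34287824-34288073) and Haao (minus strand, chr17:83846791-83847040), an enzyme of tryptophan breakdown.
H2-Eb1: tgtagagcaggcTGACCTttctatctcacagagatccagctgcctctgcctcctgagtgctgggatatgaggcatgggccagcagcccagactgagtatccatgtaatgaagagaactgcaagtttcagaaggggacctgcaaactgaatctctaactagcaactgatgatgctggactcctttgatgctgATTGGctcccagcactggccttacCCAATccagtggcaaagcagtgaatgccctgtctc
H2-Aa: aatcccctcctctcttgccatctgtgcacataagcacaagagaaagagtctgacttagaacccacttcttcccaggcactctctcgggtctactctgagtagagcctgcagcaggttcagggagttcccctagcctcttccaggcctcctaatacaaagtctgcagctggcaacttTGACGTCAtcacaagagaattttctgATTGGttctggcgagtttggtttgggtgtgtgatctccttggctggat
Haao: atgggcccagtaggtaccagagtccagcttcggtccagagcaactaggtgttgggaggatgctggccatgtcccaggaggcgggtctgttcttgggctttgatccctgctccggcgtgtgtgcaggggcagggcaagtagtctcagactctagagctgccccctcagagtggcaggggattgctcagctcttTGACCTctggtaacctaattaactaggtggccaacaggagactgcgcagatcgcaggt
The 3 promoters higher in LL-MDM were those of Arap1 (plus strand, chr7:101385276-101385525), a GTPase-activating protein, Cd81 (plus strand, chr7:143052500-143052749), a tetraspanin, and Bhlhe41 (minus strand, chr6:145865421-145865670), a repressor of the bHLH family.
Arap1: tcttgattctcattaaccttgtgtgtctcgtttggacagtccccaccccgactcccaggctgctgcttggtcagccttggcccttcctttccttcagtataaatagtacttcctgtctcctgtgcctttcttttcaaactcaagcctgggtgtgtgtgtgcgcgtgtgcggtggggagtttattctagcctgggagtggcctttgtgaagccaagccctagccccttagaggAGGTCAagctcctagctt
Cd81: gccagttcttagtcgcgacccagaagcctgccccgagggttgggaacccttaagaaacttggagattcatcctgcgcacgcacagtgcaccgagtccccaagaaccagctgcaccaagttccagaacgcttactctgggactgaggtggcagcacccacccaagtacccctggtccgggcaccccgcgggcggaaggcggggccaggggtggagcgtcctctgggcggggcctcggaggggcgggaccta
Bhlhe41: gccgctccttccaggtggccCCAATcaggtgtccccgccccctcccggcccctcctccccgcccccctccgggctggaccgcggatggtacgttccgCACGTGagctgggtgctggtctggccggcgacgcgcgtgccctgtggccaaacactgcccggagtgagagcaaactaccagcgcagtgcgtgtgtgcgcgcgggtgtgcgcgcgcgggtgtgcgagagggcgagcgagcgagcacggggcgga

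The H2-Eb1 window held 2 matches to CCAAT and the H2-Aa window 1, with 1 match to TGACGTCA upstream of it. The Haao region was at 49.1, 44.8 and 46.7 CPM in MDM and 22.0, 17.6 and 14.1 in LL-MDM (-1.45 ± 0.17). At Arap1 the region was at 3.35, 3.84 and 3.76 CPM in MDM and 14.4, 21.4 and 22.2 CPM in LL-MDM (2.48 ± 0.19), and at Cd81 at 5.10, 5.35 and 3.10 CPM in MDM and 22.01, 22.9 and 23.6 CPM in LL-MDM (2.26 ± 0.18). Over the Bhlhe41 start it was at 2.93, 3.01 and 3.27 CPM in MDM and 16.1, 20.8 and 17.01 in LL-MDM (2.61 ± 0.22). In each of these promoters the groups did not overlap.

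Over 10780 promoter windows with a tested region, 1185 were higher and 515 lower in LL-MDM. CCAAT stood in 40.8% of the higher windows, 26.2% of the lower ones and 36.2% of all. The pattern TGANTCA stood in 5.82% of the higher, 7.18% of the lower and 4.21% of all, and GAGGAAG in 10.4%, 14.4% and 10.9%. AGGTCA stood in 10.8%, 12.4% and 9.75%, CACGTG in 8.10%, 9.90% and 9.01%, the interferon response element in 2.11%, 2.91% and 2.59%, and TGACGTCA in 1.27%, 4.08% and 2.95%. The median GC content was 62.0% in higher windows, 57.6% in lower ones and 61.2% in all, so the groups differ in base composition. These shares are descriptions, and a match is not a bound site.

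**Figure D1:**
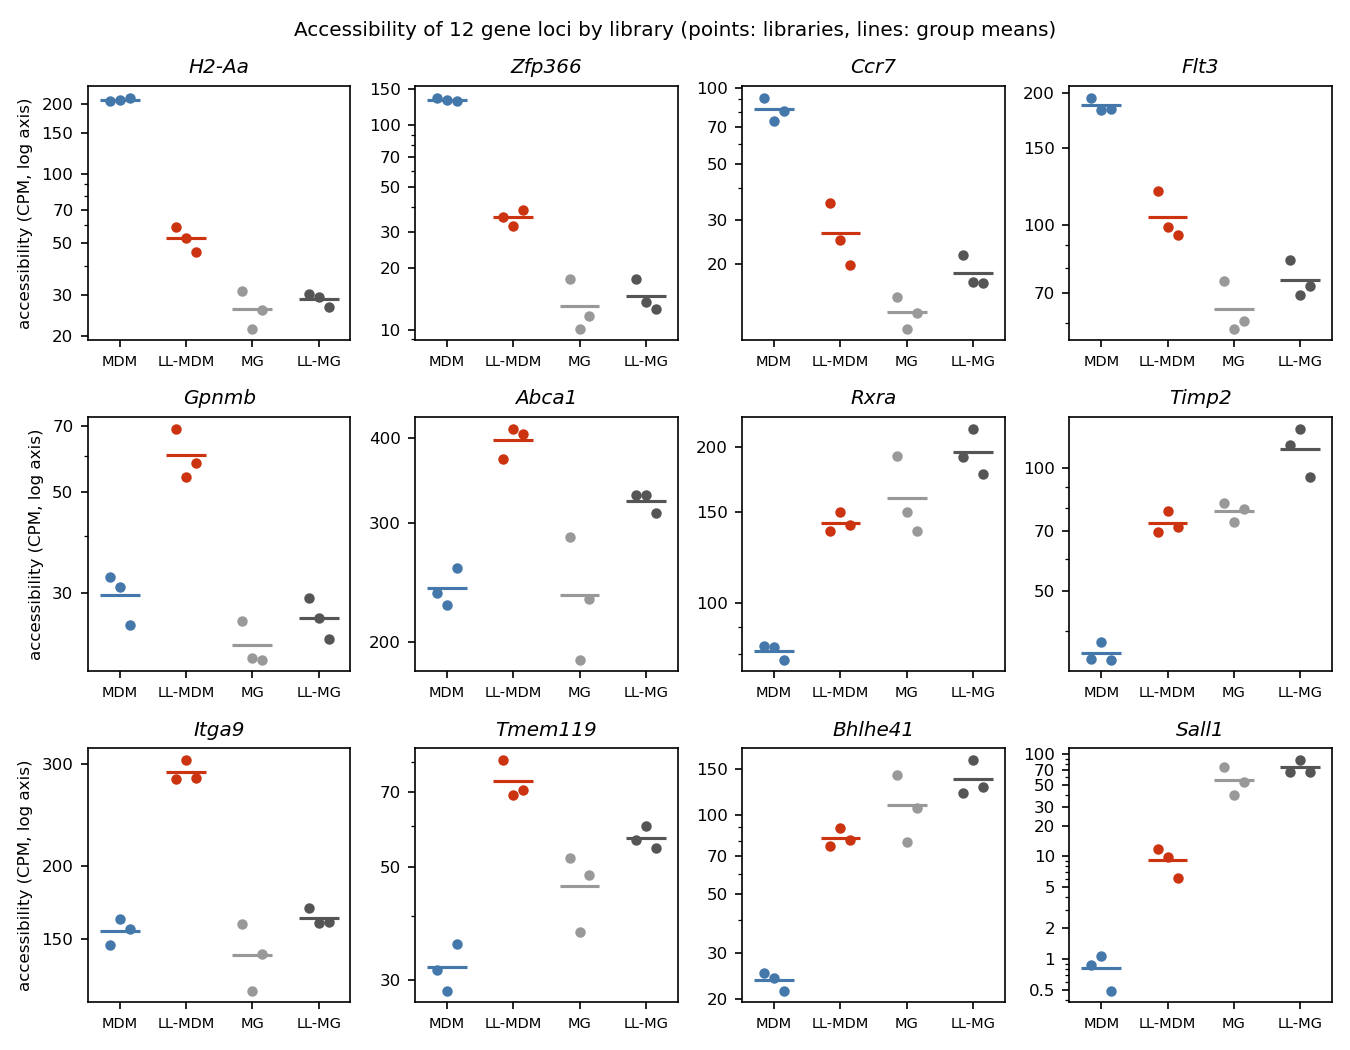
Accessibility of 12 gene loci in CPM on a log axis, each point a library and each line a group mean. The 3 LL-MDM libraries lie below the 3 MDM libraries at H2-Aa, Zfp366, Ccr7 and Flt3 and above them at the other 8 loci; at Gpnmb, Abca1, Itga9 and Tmem119 they also lie above every microglial library.

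Of 17 co-stimulatory and antigen-handling genes tested, 7 were lower and 0 higher, against 12.2% lower among all loci, with a median of -0.23. Over the gene span alone 4 were lower, and with the number block 2. Tnfsf9, the ligand of 4-1BB on T cells, was at 76.3, 61.4 and 64.4 CPM in MDM and 31.5, 28.97 and 25.7 CPM in LL-MDM (-1.25 ± 0.13, adjusted p = 9.95e-07). Tnfsf4, the ligand of OX40, was at 29.8, 26.9 and 23.9 CPM in MDM and 10.2, 14.4 and 14.01 CPM in LL-MDM (-0.99 ± 0.17, adjusted p = 0.000264). Both were lower in every LL-MDM library than in any MDM library. Cd80 was at 176, 154 and 162 CPM in MDM and 126, 111 and 112 CPM in LL-MDM (-0.52 ± 0.10, adjusted p = 0.00052). Cd86, like Cd80 a ligand of CD28, was at 299.6, 275 and 289 CPM in MDM and 209.7, 225 and 212 CPM in LL-MDM (-0.41 ± 0.12, adjusted p = 0.0189), and its call was lost without any of LL-MDM 1, LL-MDM 2, LL-MDM 3, MDM 1 or MDM 3 (adjusted p from 0.0531 to 0.0801). Cd70 (-0.90), the transporter gene Tap2 (-0.66) and the immunoproteasome gene Psmb8 (-0.50) were also lower. Tap2 and Psmb8 lie beside the class II genes and share 72.4% and all of their counts with neighbours, and both calls were lost over the gene span alone (adjusted p of 0.257 and 0.539). Cd40 was at -0.54 (adjusted p = 0.0597), Cd83 at -0.23 (adjusted p = 0.355) and B2m at -0.21 (adjusted p = 0.115), none past the test.

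Of 8 tested markers of dendritic cells, 5 were lower and 0 higher, against 12.2% lower among all loci. In thinned libraries 2 were lower, and with the number block 2. Their summed level was 756 to 822 CPM in MDM, 545 to 578 in LL-MDM, 550 to 619 in MG and 613 to 653 in LL-MG. Ccr7, the receptor that guides dendritic cells to lymph nodes, was at 91.4, 73.97 and 80.97 CPM in MDM and 34.9, 24.9 and 19.9 CPM in LL-MDM (-1.72 ± 0.14, adjusted p = 5.24e-08), and all 6 of its regions were lower. Flt3, the receptor for the growth factor of dendritic cells, was at 195, 183 and 184 CPM in MDM and 119, 99.00 and 95.2 CPM in LL-MDM (-0.88 ± 0.09, adjusted p = 1.52e-06), with 11 of 15 regions lower and 0 higher. Zbtb46, a transcription factor of classical dendritic cells, was at 302, 261 and 279 CPM in MDM and 222, 218 and 225 CPM in LL-MDM (-0.34 ± 0.08, adjusted p = 0.00363), with 6 of 17 regions lower and 0 higher. Microglia lay near the MDM level at Zbtb46 and above every LL-MDM library, with MG at 273, 283 and 248 CPM and LL-MG at 283, 261 and 277. Cd209a was at 5.86, 5.71 and 3.74 CPM in MDM and 0, 2.04 and 1.96 CPM in LL-MDM (-1.56 ± 0.42), a low level, and lost its call without LL-MDM 2 (adjusted p = 0.052). Clec9a passed the test (-0.52, adjusted p = 0.0156) although its groups overlapped, and it failed without LL-MDM 3, MDM 1 or MDM 2 (adjusted p of 0.124, 0.0702 and 0.108). The other 3 markers, which define subsets, did not pass the test: Xcr1 was at -0.05 (adjusted p = 0.849), Batf3 at 0.08 (adjusted p = 0.764) and Itgae at 0.01 (adjusted p = 0.962). The part of such cells in the lower class II and co-stimulatory loci was not tested.

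Outside these lists, Zfp366 was among the 12 lower loci with the smallest p. A region of Ly75 was among the 12 named lower regions. Both genes are known from dendritic cells, and they were grouped here after the values were seen. The other loci and regions of these sets are named elsewhere in the text. Zfp366, which encodes the zinc finger protein DC-SCRIPT of dendritic cells, was at 137, 134 and 131 CPM in MDM and 35.8, 32.4 and 38.5 CPM in LL-MDM (-1.94 ± 0.12, adjusted p = 7.78e-10), and all 10 of its regions were lower. A region in the span of Ly75, the uptake receptor DEC-205 (chr2:60376495-60377178), was at 20.1, 16.8 and 20.6 CPM in MDM and 1.69, 1.20 and 2.29 CPM in LL-MDM (-3.59 ± 0.30). Kit, the stem cell factor receptor used here as a mast cell marker, was at 100.2, 97.5 and 93.3 CPM in MDM and 33.2, 19.4 and 26.4 CPM in LL-MDM (-2.03 ± 0.22, adjusted p = 5.35e-05), and all 8 of its regions were lower. It was the only one of 4 tested mast cell and basophil markers past the test, against 24% of all loci called in either direction. The list did not fall as a whole: its median log2 fold change was 0.14 and 2 of 4 lay above 0. Of these, 1 was higher at an unadjusted p under 0.05 in edgeR. The summed level of that list was 111 to 122 CPM in MDM, 50.2 to 61.4 in LL-MDM and 67.5 to 205 in MG. Kit alone averaged 97.0 CPM in MDM and 26.4 in LL-MDM.

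Of 12 microglia markers, 6 were higher in LL-MDM and 0 lower, against 11.7% higher among all loci. Their median was 0.32, and their summed level was 288 to 322 CPM in MDM, 385 to 401 in LL-MDM, 345 to 631 in MG and 602 to 664 in LL-MG. Sall1, given above by library, rose by 3.29 ± 0.38 (adjusted p = 1.95e-05), with all 4 regions higher, and Sall3 was at 3.69, 3.79 and 2.76 CPM in MDM and 7.67, 11.02 and 8.15 CPM in LL-MDM (1.43 ± 0.27). Both stayed below every MG library. Tmem119, a surface protein of microglia, was at 31.4, 28.6 and 35.3 CPM in MDM and 80.98, 69.1 and 70.7 CPM in LL-MDM (1.20 ± 0.12, adjusted p = 4.02e-07). The LL-MDM values lay above MDM and also above the 3 MG libraries, at 51.9, 37.2 and 48.1 CPM. Olfml3 (1.08), Fcrls (1.05, which lost its call without LL-MDM 2, adjusted p = 0.0743) and the fructose carrier gene Slc2a5 (0.44) also rose. Without LL-MDM 2 the list held 4 higher genes, and with the number block 2. The other 6 did not pass the test, among them P2ry12 (-0.04, adjusted p = 0.932), Gpr34 (-0.23, adjusted p = 0.6) and Siglech (-0.16, adjusted p = 0.621).

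Of 7 tested markers of monocyte-derived macrophages, 4 were lower and 2 higher, against 12.2% and 11.7% of all loci. The list held 1 lower and 0 higher with the number block. Plac8 was at 40.95, 38.1 and 36.9 CPM in MDM and 17.05, 20.8 and 19.2 CPM in LL-MDM (-0.98 ± 0.13, adjusted p = 2.67e-05) and Itga4, an integrin of cells that enter the brain from blood, at 138, 112 and 116 CPM in MDM and 85.2, 80.4 and 83.4 CPM in LL-MDM (-0.57 ± 0.11, adjusted p = 0.000708). Runx3 (-0.33) and Ccr2, the receptor that brings monocytes into tissue (27.6, 24.2 and 22.6 CPM in MDM and 6.82, 9.66 and 10.8 CPM in LL-MDM; -1.38 ± 0.39, adjusted p = 0.0252), were lower as well. The Ccr2 call was lost without any 1 of the libraries LL-MDM 1, 2 and 3 and MDM 1 and 2 (adjusted p from 0.0527 to 0.118). The proteoglycan gene Vcan (44.4, 42.1 and 45.9 CPM in MDM and 69.04, 56.7 and 73.97 CPM in LL-MDM; 0.57 ± 0.11) and the hyaluronan receptor gene Cd44 (0.25) rose, and in both LL-MDM lay above every other library of the series. The summed level of the list was 720 to 770 CPM in MDM, 655 to 682 in LL-MDM and 369 to 465 in MG. At Plac8 LL-MDM 1 and LL-MDM 3 lay in the range of microglia and LL-MDM 2 just above it, with MG at 15.5, 18.4 and 19.6 CPM. At Vcan and Cd44 all LL-MDM libraries lay above that range. The part of microglial nuclei in the LL-MDM libraries was not tested. Only some of the loci at which LL-MDM exceeded all microglial libraries are named as such below. Apoc4, Nceh1, Ets2 and Rsad2 are further ones.

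Lists of other cells are set here against 24% of all loci called in either direction. In lists this short, the counts are no result about these cells. With the number block edgeR called none of the members of these 8 lists (0 to 2 a list at an unadjusted p under 0.05). Border macrophage markers had 1 of 6 called (Cbr2, 0.37, lost without LL-MDM 3 or MDM 1 with adjusted p of 0.0721 and 0.0584), and neutrophil markers 0 of 5 (1 at an unadjusted p under 0.05, and 0 with DESeq2). T and NK cell markers had 1 of 5 (Cd3e, at 6.73, 6.04 and 7.32 CPM in MDM and 1.70, 2.45 and 1.63 CPM in LL-MDM), B cell markers 1 of 5 (Pax5, -1.07), and oligodendrocyte and tumour progenitor markers 1 of 6 (Mbp, -0.26, lost without LL-MDM 3 or MDM 1 with adjusted p of 0.0554 and 0.056). Neuron markers had 1 of 3 (Tubb3, -0.44, not called by DESeq2, adjusted p = 0.0547, or without LL-MDM 1, LL-MDM 3, MDM 1 or MDM 2, adjusted p from 0.0766 to 0.0906), endothelium markers 1 of 4 (Pecam1, -0.45), and astrocyte markers 0 of 5 (1 at an unadjusted p under 0.05, and 0 with DESeq2). Every one of these calls except Cbr2 was lower in LL-MDM, but the calls do not give the direction of their lists. A log2 fold change above 0 was found for 4 of 5 B cell and 3 of 6 oligodendrocyte and tumour progenitor markers. It was found for 1 of 5 T and NK cell, 1 of 3 neuron and 1 of 4 endothelium markers. Among defining genes, Mog, Aqp4, Ly6g, Cd8a and Cldn5 had no tested locus. The summed level of oligodendrocyte and progenitor markers was 346 to 367 CPM in MDM and 286 to 313 in LL-MDM. Most of that sum was Mbp, at a mean of 317 CPM in MDM and 264 in LL-MDM, and the median log2 fold change of the list was -0.001.

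Among genes of lipid-associated macrophages, 11 of 22 were higher and 2 lower, against 11.7% and 12.2% of all loci, with a median of 0.30. Gpnmb, a membrane glycoprotein of lysosomes and the usual marker of this state (chr6:49036518-49058182), was at 32.6, 31.03 and 25.5 CPM in MDM and 69.04, 54.1 and 58.01 CPM in LL-MDM (0.96 ± 0.12, adjusted p = 1.41e-05). Its LL-MDM libraries also lay above MG, at 26.1, 21.7 and 21.4 CPM, and LL-MG, at 29.2, 26.5 and 23.8 CPM. All 5 Gpnmb regions were higher, with the region at the start (chr6:49036409-49036763) rising by 1.32 ± 0.20. Timp2, an inhibitor of metalloproteinases, was at 34.2, 37.5 and 33.98 CPM in MDM and 69.9, 78.6 and 71.7 CPM in LL-MDM (1.07 ± 0.10, adjusted p = 2.55e-07). The growth factor gene Igf1 was at 2.75, 3.79 and 2.44 CPM in MDM and 7.67, 7.75 and 10.1 CPM in LL-MDM (1.45 ± 0.27, adjusted p = 0.000524). In all 3 genes the groups did not overlap.

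Cathepsins, proteases of the lysosome, were among the higher loci. Ctsd was at 38.9, 38.3 and 34.3 CPM in MDM and 69.04, 75.8 and 61.9 CPM in LL-MDM (0.90 ± 0.10, adjusted p = 4.54e-06), Ctsb at 169.9, 154 and 189 CPM in MDM and 257, 251 and 246 CPM in LL-MDM (0.56 ± 0.15, adjusted p = 0.0158) and Ctsl at 36.1, 37.6 and 41.1 CPM in MDM and 66.5, 51.95 and 51.8 CPM in LL-MDM (0.52 ± 0.12, adjusted p = 0.0025). Cd63, a tetraspanin of late endosomes, was at 45.4, 43.5 and 43.3 CPM in MDM and 71.6, 77.9 and 81.1 CPM in LL-MDM (0.82 ± 0.08), with 86.7% of its counts shared with neighbours. The galectin gene Lgals3 rose by 0.28 ± 0.09, and its LL-MDM libraries lay above all others. Spp1, which encodes osteopontin, did not pass the test (20.5, 21.2 and 18.4 CPM in MDM and 25.6, 21.2 and 21.5 CPM in LL-MDM; 0.14 ± 0.15, adjusted p = 0.583), and neither did Cd9 (0.22, adjusted p = 0.324), Cst7 (0.03, adjusted p = 0.939), Fabp5 (0.32, adjusted p = 0.0677) or Csf1 (0.24, adjusted p = 0.127). The lower genes were Clec7a, the beta-glucan receptor Dectin-1 (47.4, 47.3 and 38.5 CPM in MDM and 25.6, 31.4 and 29.7 CPM in LL-MDM; -0.59 ± 0.13), and Itgax, which encodes CD11c (94.9, 100.1 and 94.3 CPM in MDM and 62.2, 87.04 and 65.8 CPM in LL-MDM; -0.37 ± 0.11). The count of higher genes was 7 in thinned libraries and 7 without LL-MDM 2. It was 6 with the number block, and 0 were lower.

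**Figure D2:**
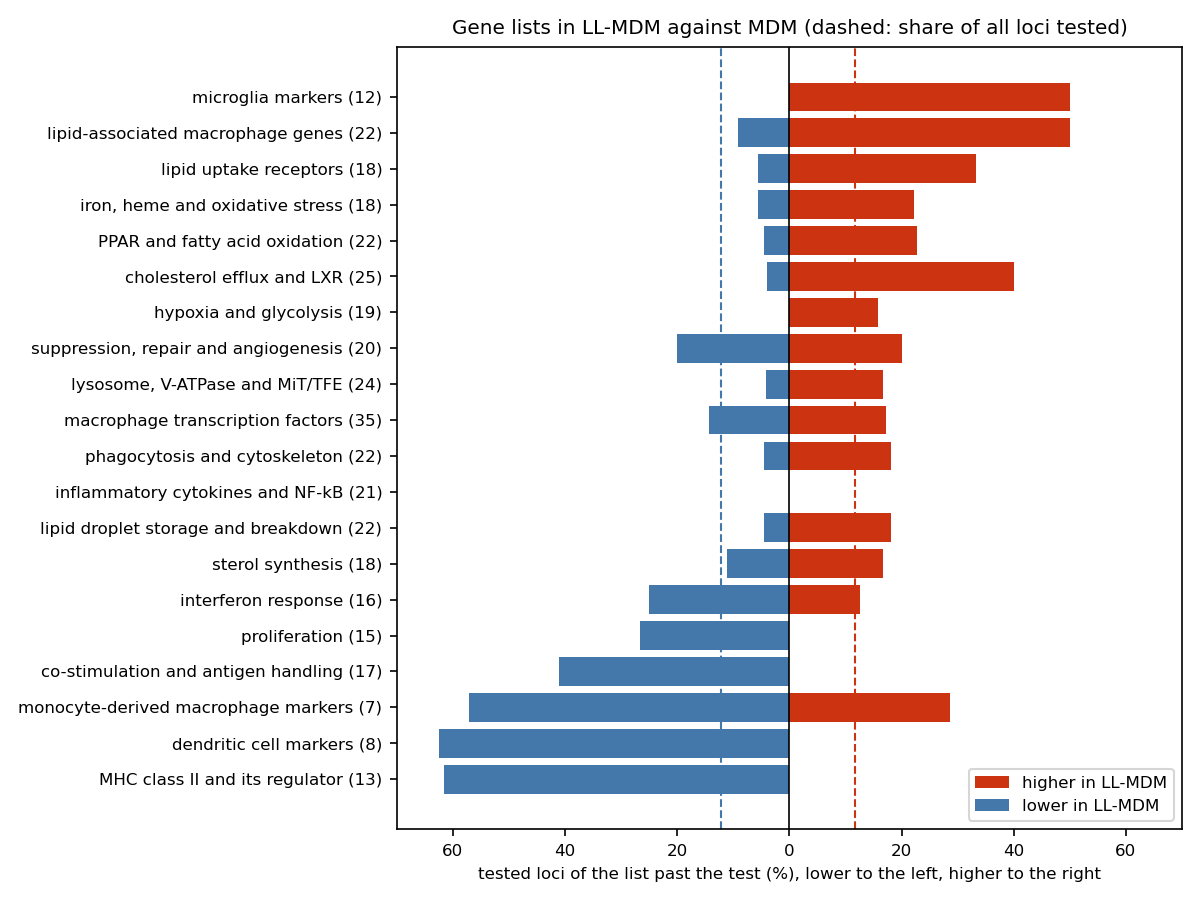
Share of the tested loci of each gene list past the test, in percent, with lower in LL-MDM to the left and higher to the right. Numbers in brackets are loci tested, and dashed lines give the shares among all 15540 loci (12.2% lower, 11.7% higher); MHC class II (8 of 13) and dendritic cell markers (5 of 8) lie only to the left, microglia markers (6 of 12) only to the right.

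Of 25 tested genes of cholesterol export by way of LXR and RXR, 10 were higher and 1 lower, against 11.7% and 12.2% of all loci, with a median of 0.14. Abca1, the exporter that loads cholesterol onto apolipoprotein A-I (chr4:53030789-53159988), was at 236, 226 and 257 CPM in MDM and 372, 414 and 406 CPM in LL-MDM (0.74 ± 0.11, adjusted p = 7.05e-05). Every LL-MDM library exceeded every other library of the series, with LL-MG at 329.6, 329 and 311 CPM, and 11 of 15 regions were higher and 0 lower. Abcg1, the exporter to HDL, did not pass the test (97.97, 92.6 and 83.1 CPM in MDM and 107, 103 and 96.1 CPM in LL-MDM; 0.14 ± 0.12, adjusted p = 0.404), although 3 of its 13 regions were higher and 1 lower. Gramd1b, a protein that carries cholesterol from the plasma membrane to the endoplasmic reticulum, was at 267, 259.5 and 257 CPM in MDM and 384, 417 and 406 CPM in LL-MDM (0.63 ± 0.07, adjusted p = 2.73e-06). Its relative Gramd1a rose by 0.24 ± 0.08.

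Among the receptors, Rxra rose and the LXR gene Nr1h3 did not. Rxra was at 82.9, 82.6 and 77.9 CPM in MDM and 138, 149.7 and 141 CPM in LL-MDM (0.83 ± 0.10, adjusted p = 1.05e-05), with 9 of 14 regions higher and 0 lower. Nr1h3, which encodes LXR alpha, was at 227, 218 and 243 CPM in MDM and 222, 218 and 210.2 CPM in LL-MDM (-0.08 ± 0.08, adjusted p = 0.489), and its groups overlapped. Ttc39b, whose product lowers LXR protein, was among the 12 higher loci with the smallest p (113, 118 and 112 CPM in MDM and 199, 186 and 181 CPM in LL-MDM; 0.71 ± 0.07). The apolipoprotein cluster rose as a block: Apoe by 0.66 ± 0.11, Apoc1 by 1.84 ± 0.31, Apoc2 by 0.52 ± 0.12 and Apoc4 by 1.05 ± 0.13, with adjusted p of at most 0.00342. These 4 genes lie side by side and share all of their counts, so they are not separate results. Apoe was at 26.8, 32.7 and 27.8 CPM in MDM and 37.5, 48.3 and 48.6 CPM in LL-MDM, and it was not called in thinned libraries (0.34, adjusted p = 0.256). Lpcat3, an LXR target that remodels phospholipids, rose by 0.44 ± 0.08, and Smpdl3a by 0.35 ± 0.12. Scd1, the desaturase that LXR and SREBP1 switch on, was lower (40.4, 40.2 and 39.3 CPM in MDM and 28.98, 23.8 and 21.2 CPM in LL-MDM; -0.75 ± 0.13, adjusted p = 0.000293). The count of higher genes was 6 in thinned libraries, 7 without LL-MDM 2 and 5 with regions that belong to 1 gene only. It was 4 with the number block, and 0 were lower.

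Of 18 tested uptake receptors, 6 were higher and 1 lower, against 11.7% and 12.2% of all loci, with a median of 0.16. The sensor of lipids Trem2 was at 37.8, 44.8 and 56.9 CPM in MDM and 66.5, 72.1 and 82.8 CPM in LL-MDM (0.71 ± 0.18, adjusted p = 0.0142), and its call was lost without LL-MDM 2 or LL-MDM 3 (adjusted p of 0.0532 and 0.0674). Mertk, a receptor for dying cells, was at 73.1, 87.5 and 77.2 CPM in MDM and 116, 143 and 138 CPM in LL-MDM (0.77 ± 0.21), and Lrp1, a receptor for lipoproteins and myelin, at 341, 342 and 381 CPM in MDM and 474, 500.1 and 496 CPM in LL-MDM (0.47 ± 0.10, adjusted p = 0.00196). Lpl, the lipase of lipoproteins, rose by 1.07 ± 0.33 from a low level (2.89, 2.40 and 1.63 CPM in MDM and 3.41, 5.44 and 5.21 CPM in LL-MDM). Colec12, a scavenger receptor, was at 0.796, 1.55 and 1.30 CPM in MDM and 4.26, 3.81 and 4.89 CPM in LL-MDM (1.76 ± 0.37), also a low level, and Lrp12 rose by 0.51 ± 0.11. Olr1, the receptor of oxidised LDL, was lower (77.5, 71.9 and 69.4 CPM in MDM and 45.2, 55.4 and 54.4 CPM in LL-MDM; -0.46 ± 0.10). The classical scavenger receptors did not pass the test: Cd36 was at 0.13 (adjusted p = 0.442) and Msr1 at 0.03 (adjusted p = 0.924). The higher count was 3 without LL-MDM 2, 3 without LL-MDM 3 and 1 in thinned libraries. With the number block it was 1, and 0 were lower.

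Of 22 tested droplet genes, 4 were higher and 1 lower, against 11.7% and 12.2% of all loci, and the median was 0.01. Plin2, the coat protein of droplets, was at 45.4, 44.3 and 44.9 CPM in MDM and 69.04, 69.2 and 63.9 CPM in LL-MDM (0.59 ± 0.11, adjusted p = 0.000927), with 3 of 4 regions higher. Nceh1, a hydrolase of cholesterol esters, rose by 0.37 ± 0.08, the triglyceride lipase gene Pnpla2 by 0.36 ± 0.09 and Fabp3 by 0.91 ± 0.25. The hormone-sensitive lipase gene Lipe was lower (-0.42 ± 0.10). Soat1, which makes cholesterol esters, was at 99.7, 101 and 95.4 CPM in MDM and 99.7, 104 and 94.8 CPM in LL-MDM (0.01 ± 0.08, adjusted p = 0.935), with the groups overlapping. Pnpla2 shares all of its counts and was not called over the gene span alone (adjusted p = 0.4). Fabp3 was not called without LL-MDM 2 (adjusted p = 0.0874). In the list 1 gene was higher and 0 lower with the number block.

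For fatty acid oxidation, 5 of 22 genes were higher and 1 lower, against 11.7% and 12.2% of all loci, with a median of 0.15. With the number block 1 was higher and 1 lower. Angptl4, a target of PPARs that inhibits lipoprotein lipase, was at 32.8, 37.3 and 34.5 CPM in MDM and 55.4, 58.3 and 53.4 CPM in LL-MDM (0.68 ± 0.09, adjusted p = 3.34e-05). The dehydrogenase gene Acadl was at 28.9, 30.8 and 30.2 CPM in MDM and 46.03, 44.5 and 45.6 CPM in LL-MDM (0.59 ± 0.10), though it was not called in thinned libraries (0.17, adjusted p = 0.637). Ppard (0.36 ± 0.08), Ppargc1b (0.39 ± 0.10) and Etfdh (0.38 ± 0.09) also rose. Ppargc1a, the coactivator PGC-1 alpha, was lower (105, 101 and 78.05 CPM in MDM and 46.9, 47.3 and 59.3 CPM in LL-MDM; -0.89 ± 0.14, adjusted p = 0.00021), with 7 of 9 regions lower. Pparg itself did not pass the test (-0.10 ± 0.09, adjusted p = 0.484).

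Sterol synthesis had 3 of 18 genes higher and 2 lower, against 11.7% and 12.2% of all loci, and 0 higher and 1 lower with the number block. Srebf2, the master activator of the pathway, was at 164, 162 and 169 CPM in MDM and 111, 122 and 116 CPM in LL-MDM (-0.49 ± 0.07, adjusted p = 7.49e-05), with 5 of 12 regions lower and 0 higher. It shares 46.8% of its counts with neighbours. The enzyme genes Hmgcs1 (0.35 ± 0.08) and Fdft1 (0.40 ± 0.09) rose. Hmgcs1 was not called in thinned libraries (adjusted p = 0.0592), nor Fdft1 with regions of 1 gene only (adjusted p = 0.155). Mvd (0.34, adjusted p = 0.0413) and Sc5d (-0.34, adjusted p = 0.0463) were close to the threshold. Mvd was not called without LL-MDM 1, 2 or 3 or MDM 1 or 2 (adjusted p from 0.0793 to 0.158), and Sc5d was not called without any 1 of the 6 libraries (adjusted p from 0.0617 to 0.167).

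In the lysosome list 4 of 24 genes were higher and 1 lower, against 11.7% and 12.2% of all loci, with a median of 0.10. Tfec, of the MiT/TFE family of lysosomal activators, was at 23.4, 21.04 and 23.7 CPM in MDM and 34.1, 32.1 and 36.5 CPM in LL-MDM (0.59 ± 0.15, adjusted p = 0.00749), above all other libraries. Tfe3 (0.30 ± 0.11), Hexa (0.36 ± 0.10) and Atp6v0d2 (0.46 ± 0.14) were also higher, and the proton pump gene Atp6v0a1 was lower (-0.37 ± 0.09). Mitf did not pass the test (0.07 ± 0.10, adjusted p = 0.616). The 4 higher calls were all lost without LL-MDM 3 (adjusted p from 0.0501 to 0.2), and with the number block edgeR called 0 genes of the list (3 at an unadjusted p under 0.05).

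The list of suppression, repair and angiogenesis had 4 of 20 higher and 4 lower, against 11.7% and 12.2% of all loci, and 0 higher and 1 lower with the number block. Thbs1, which encodes thrombospondin, was at 48.3, 48.3 and 60.6 CPM in MDM and 74.2, 93.2 and 73.6 CPM in LL-MDM (0.67 ± 0.11, adjusted p = 0.000195), and Nt5e, which makes adenosine and is known as CD73, was at 26.8, 29.1 and 26.99 CPM in MDM and 36.7, 42.7 and 44.97 CPM in LL-MDM (0.61 ± 0.19). Both lay above all other libraries. Vsir, the checkpoint ligand VISTA, was at 237, 234 and 256 CPM in MDM and 328, 334 and 312 CPM in LL-MDM (0.42 ± 0.11), with 12 of 25 regions higher and 0 lower. All of the Vsir counts are shared with neighbouring genes, so the rise cannot be tied to Vsir alone. Arg1 was at 39.7, 46.8 and 43.3 CPM in MDM and 51.1, 70.9 and 72.02 CPM in LL-MDM (0.63 ± 0.15, adjusted p = 0.0044), and lost its call without LL-MDM 2 (adjusted p = 0.0532). The lower genes were the ligands of PD-1, Cd274 (-0.27 ± 0.08) and Pdcd1lg2 (220.2, 213 and 218 CPM in MDM and 150.0, 142 and 140.4 CPM in LL-MDM; -0.59 ± 0.13), with Havcr2, which encodes TIM-3 (252, 227 and 262 CPM in MDM and 143, 149 and 142 CPM in LL-MDM; -0.76 ± 0.12), and Il4ra (-0.30 ± 0.09). Without LL-MDM 2 the list held 2 higher and 2 lower genes, and without MDM 1 it held 3 and 2.

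Of 21 cytokine and NF-kB genes, 0 passed the edgeR test, against 24% of all loci called in either direction. An unadjusted p under 0.05 was reached by 3, and DESeq2 called 1. Tnf was at 129, 122 and 141 CPM in MDM and 141, 151 and 135 CPM in LL-MDM (0.13 ± 0.09, adjusted p = 0.294) and Il1b at 105, 92.2 and 93.98 CPM in MDM and 92.9, 80.1 and 70.1 CPM in LL-MDM (-0.29 ± 0.15, adjusted p = 0.164). Over the gene span alone both passed, Tnf at 0.40 and Il1b at -1.20 (adjusted p of 0.00604 and 0.00382). In the interferon list 2 of 16 were higher and 4 lower, against 11.7% and 12.2% of all loci, and edgeR called 0 with the number block (2 at an unadjusted p under 0.05). Irf7, the amplifier of the response, was at 78.4, 74.99 and 73.7 CPM in MDM and 38.4, 55.5 and 62.2 CPM in LL-MDM (-0.47 ± 0.11, adjusted p = 0.00365), with all of its counts shared with neighbours. Rsad2, which encodes viperin, was higher (48.1, 43.6 and 44.6 CPM in MDM and 63.1, 59.8 and 58.3 CPM in LL-MDM; 0.40 ± 0.09), but not over the gene span alone (0.20, adjusted p = 0.211). Ddx58 (-0.58), Irf9 (-0.36) and Ifit2 (-0.44) were lower, and Isg15 (0.26) was higher with overlapping groups. The Irf9 and Isg15 calls were lost without LL-MDM 2, LL-MDM 3 or MDM 1, and those of Isg15 and Ddx58 without MDM 2 (adjusted p from 0.0533 to 0.163). The list then held 1 higher and 2 lower genes without LL-MDM 3, MDM 1 or MDM 2, and 1 and 3 without LL-MDM 2.

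Of 19 hypoxia genes 3 were higher, against 11.7% of all loci (Mxi1 by 0.26, the glycolytic activator gene Pfkfb3 by 0.27 and Adm by 0.44), and each was lost without LL-MDM 3 (adjusted p of 0.0785, 0.0688 and 0.117). Of 18 iron and oxidative stress genes, 4 were higher and 1 lower, against 11.7% and 12.2% of all loci. Slc40a1, the only known iron exporter ferroportin, was at 2.68, 3.95 and 2.76 CPM in MDM and 7.67, 10.6 and 12.4 CPM in LL-MDM (1.72 ± 0.27, adjusted p = 0.000105), a rise in every LL-MDM library. Gpx4, which guards against lipid peroxides, rose by 0.38 ± 0.08, and Gclc by 0.28 ± 0.07. Blvrb, a biliverdin reductase gene, rose by 0.35 ± 0.09, a call lost without MDM 1 (adjusted p = 0.0535). The lower gene was the thioredoxin reductase gene Txnrd1 (-0.23 ± 0.07), lost without LL-MDM 2, LL-MDM 3, MDM 1 or MDM 3 (adjusted p from 0.054 to 0.104). Nfe2l2, which encodes NRF2, was at 0.09 (adjusted p = 0.433). Of 15 proliferation genes, 4 were lower and 0 higher, against 12.2% lower among all loci: Bub1 was at 60.9, 53.7 and 54.6 CPM in MDM and 36.7, 37.7 and 36.5 CPM in LL-MDM (-0.61 ± 0.12), and Aurkb, Top2a and Mcm5 were also lower (-0.42, -0.40 and -0.38). Aurkb was not called over the gene span alone (0.04), and Top2a and Mcm5 were lost without LL-MDM 2, LL-MDM 3 or MDM 1 (adjusted p from 0.0584 to 0.102). With the number block edgeR called 0 hypoxia genes (2 at an unadjusted p under 0.05), while 1 iron gene was higher and 1 proliferation gene lower.

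Of 35 transcription factor loci, 6 were higher and 5 lower, against 11.7% and 12.2% of all loci. With the number block 2 were higher and 1 lower. Bhlhe41 was at 25.1, 24.04 and 21.5 CPM in MDM and 76.7, 89.8 and 80.5 CPM in LL-MDM (1.82 ± 0.19, adjusted p = 5.54e-05), and all 7 of its regions were higher. Its relative Bhlhe40 was lower (434, 397 and 440.1 CPM in MDM and 361, 318 and 316 CPM in LL-MDM; -0.36 ± 0.10, adjusted p = 0.00835), and lost its call without LL-MDM 2 or LL-MDM 3 (adjusted p of 0.0586 and 0.0618). Zeb2 rose from 149 ± 10.1 to 218 ± 13.7 CPM (0.54 ± 0.08), Ets2 from 113 ± 16.3 to 166 ± 10.2 (0.55 ± 0.09), Cebpa by 0.40 ± 0.09 and Egr1 by 0.33 ± 0.09. Irf4, a factor of antigen-presenting cells, was at 63.2, 67.03 and 60.2 CPM in MDM and 39.2, 36.3 and 38.8 CPM in LL-MDM (-0.76 ± 0.13, adjusted p = 0.000347), and Etv3 at 152, 147 and 138 CPM in MDM and 83.5, 85.3 and 72.02 CPM in LL-MDM (-0.86 ± 0.09, adjusted p = 7.32e-07), with all 6 regions lower. Nr4a2 fell by -0.38 and Runx3 by -0.33 on the log2 scale. The lineage factor PU.1 (Spi1, 0.19, adjusted p = 0.252) and Irf8 (0.37, adjusted p = 0.137) did not pass the test as loci. Single regions did: 4 of 7 at Irf8 were higher and 0 lower, and 4 of 12 at Spi1 were higher and 2 lower. Among all regions 15.4% were higher and 14.1% lower. The Irf8 locus showed no overlap between the groups.

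Phagocytosis genes had 4 of 22 higher and 1 lower, against 11.7% and 12.2% of all loci, and 0 higher and 1 lower with the number block. The motor protein gene Myo1e was at 195, 198 and 205 CPM in MDM and 251, 296 and 295 CPM in LL-MDM (0.51 ± 0.10, adjusted p = 0.000601), with 13 of 31 regions higher and 3 lower. Gas6, the bridge between dying cells and Mertk, was at 5.21, 5.71 and 4.39 CPM in MDM and 7.67, 10.1 and 13.4 CPM in LL-MDM (1.04 ± 0.25), and Itgav (0.31) and Itgb5 (0.29) were nearer to the threshold (adjusted p of 0.0331 and 0.0439). Both integrin calls were lost without LL-MDM 2, LL-MDM 3, MDM 1, MDM 2 or MDM 3 (adjusted p from 0.0549 to 0.237), and the list held 2 higher genes without any of the first 4. Vav3, an exchange factor for small GTPases, was lower (256, 261 and 256 CPM in MDM and 149, 151 and 156 CPM in LL-MDM; -0.76 ± 0.10, adjusted p = 3.65e-05), with 12 of 23 regions lower and 0 higher.

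Among all loci, the 12 higher ones with the smallest p were Dmxl2, Nova1, Pitpnc1, Timp2, Itga9, Itih1, Cerk, Chd5, Tmem119, Lamc1, Oacyl and Ttc39b. Dmxl2, a regulator of the V-ATPase (chr9:54365158-54501866), was at 64.4, 62.4 and 69.8 CPM in MDM and 153, 147 and 141 CPM in LL-MDM (1.17 ± 0.10, adjusted p = 9.22e-08). Itga9, an integrin alpha chain (chr9:118606709-118901003), was at 146, 162 and 156 CPM in MDM and 282, 305 and 283 CPM in LL-MDM (0.91 ± 0.08, adjusted p = 2.55e-07), and no other library of the series reached its LL-MDM values. Pitpnc1, a carrier of phosphatidylinositol, was at 163, 172 and 174 CPM in MDM and 279.6, 326 and 298 CPM in LL-MDM (0.84 ± 0.08), and the ceramide kinase gene Cerk at 104, 109 and 121 CPM in MDM and 229, 238 and 198 CPM in LL-MDM (1.00 ± 0.09). Lamc1, a laminin chain, was at 36.3, 41.3 and 37.7 CPM in MDM and 73.3, 77.7 and 81.5 CPM in LL-MDM (1.02 ± 0.10). Nova1, a splicing factor of neurons, had the largest fold of these 12 (0.434, 0.641 and 0.650 CPM in MDM and 9.38, 6.66 and 9.45 CPM in LL-MDM; 3.75 ± 0.34), and its level stayed under that of MG (49.4, 28.4 and 38.6 CPM).

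Besides class II genes and Zfp366, the 12 lower loci with the smallest p included Nectin1, Sdcbp2, Gpr55, Snph, Dthd1, Casr and Gucy2c. Nectin1, an adhesion protein (chr9:43737075-43807461), was at 146, 139 and 137 CPM in MDM and 47.7, 54.8 and 46.9 CPM in LL-MDM (-1.47 ± 0.10, adjusted p = 2.78e-09), with all 10 regions lower. Gpr55, a receptor for lysophosphatidylinositol (chr1:85933221-85991583), was at 183, 190.4 and 213 CPM in MDM and 80.1, 88.5 and 77.2 CPM in LL-MDM (-1.23 ± 0.09), with 11 of 13 regions lower. Casr, the calcium-sensing receptor, was at 143, 136 and 142 CPM in MDM and 38.4, 34.00 and 35.5 CPM in LL-MDM (-1.99 ± 0.14, adjusted p = 1.07e-08), with 9 of 10 regions lower, and Gucy2c at 164, 164 and 164 CPM in MDM and 74.2, 76.97 and 85.1 CPM in LL-MDM (-1.05 ± 0.08). Sdcbp2 and Snph are neighbours, and 51.3% and 82.8% of their counts are shared.

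**Figure D3:**
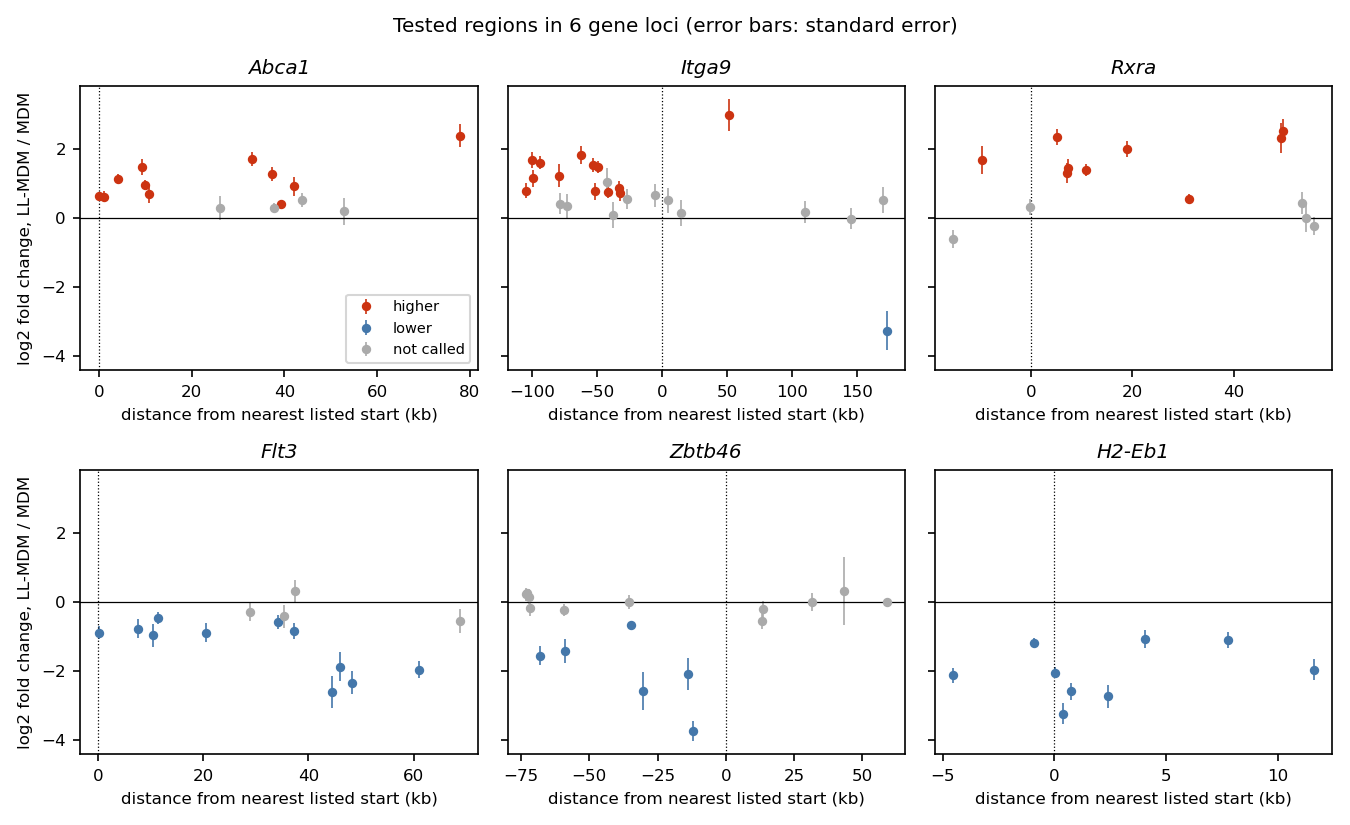
Log2 fold changes of single regions, LL-MDM over MDM, with standard errors, against the distance in kb from the nearest start listed for the gene (negative before it in the direction of the gene). Abca1 (11 of 15), Rxra (9 of 14) and Itga9 (13 of 25, with 1 lower) hold mostly higher regions, and Flt3 (11 of 15), Zbtb46 (6 of 17) and H2-Eb1 (9 of 9) hold lower ones.

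Of all regions, 7.88% were higher and 8.29% lower by at least 1 on the log2 scale with no overlap between the groups, and the regions named next were taken from these by p. The smallest p of a higher one belonged to chr17:5569109-5569953, in the span of Zdhhc14, a palmitoyltransferase gene, at 8.38, 10.4 and 9.31 CPM in MDM and 38.1, 50.8 and 48.1 CPM in LL-MDM (2.32 ± 0.15, adjusted p = 3.29e-12). A region in the span of Gramd1b (chr9:40321003-40321926) was at 22.3, 22.02 and 29.7 CPM in MDM and 119, 109.8 and 124 CPM in LL-MDM (2.27 ± 0.14), the highest values of the series. A region in the Lhfpl2 span (chr13:94169369-94169705) was at 3.00, 3.53 and 3.10 CPM in MDM and 21.2, 21.3 and 21.6 CPM in LL-MDM (2.71 ± 0.18). The Mms19 region (chr19:41973938-41974399) had the largest fold among those named (0.419, 0.312 and 0.490 CPM in MDM and 5.92, 11.8 and 9.81 CPM in LL-MDM; 4.67 ± 0.35), from an MDM level of a few counts. A region 9413 bp from the Gas6 span (chr8:13503948-13504502) was at 3.28, 4.93 and 2.94 CPM in MDM and 22.9, 24.5 and 21.9 CPM in LL-MDM (2.57 ± 0.20), and one in the span of Manba, a mannosidase of lysosomes (chr3:135516870-135517332), at 0.908, 0.883 and 1.31 CPM in MDM and 11.8, 9.98 and 10.1 CPM in LL-MDM (3.39 ± 0.27). The region nearest to Tnfaip3, the NF-kB inhibitor A20, lay 56975 bp from its span (chr10:18943301-18943935) at 16.7, 16.4 and 18.3 CPM in MDM and 64.3, 53.4 and 59.2 CPM in LL-MDM (1.77 ± 0.13). The remaining ones lay near Scn11a (2.59), Galnt1 (3.00) and Dnttip2 (2.70). At several of these sites LL-MDM lay between MDM and microglia: MG was at 27.6, 13.9 and 18.2 CPM at Mms19 and 27.6, 18.8 and 21.9 at Manba. Near Gas6 MG was at 33.3, 22.9 and 27.3 CPM, and LL-MDM 2 lay above MG 2, so LL-MDM and MG overlapped there.

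On the lower side, the smallest p belonged to an intergenic region 263077 bp from its nearest gene span, Sec61b (chr4:47746310-47747093), at 54.9, 54.3 and 65.02 CPM in MDM and 12.7, 8.65 and 6.21 CPM in LL-MDM (-2.77 ± 0.19, adjusted p = 1.49e-11). A second distal region on the same chromosome (chr4:47818887-47819193), 225885 bp from Nr4a3, was at 19.5, 19.2 and 18.8 CPM in MDM and 1.69, 1.33 and 1.64 CPM in LL-MDM (-3.70 ± 0.31). In the Zbtb46 span, chr2:181436193-181436598 was at 22.7, 19.4 and 19.3 CPM in MDM and 1.69, 1.73 and 0.981 CPM in LL-MDM (-3.74 ± 0.29), a near loss of signal in LL-MDM. Regions near Mbnl2 (-2.37), Tmem131 (-2.16), Ptcd2 (-3.09), Carmil1 (-2.78) and Upb1 (-2.36) were also lower without overlap between the groups. Whether a region in a gene span is exonic or intronic is not known here, because the gene table gives spans only.

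Some regions stood outside the range of all other groups, microglia included. In 1357 called regions (1.75%) all 3 LL-MDM libraries lay above each of the other 9, and in 448 (0.576%) below them. The same held for 203 gene loci above (1.31%) and 155 below (0.997%). A region in the span of Arhgap15, a GTPase-activating protein for Rac (chr2:44274557-44274995), was at 1.54, 1.14 and 0.327 CPM in MDM and 11.8, 13.2 and 12.4 CPM in LL-MDM, against 0.354, 0.983 and 0.466 CPM in MG (3.46 ± 0.30). A region 3357 bp from Nampt, which makes a precursor of NAD (chr12:32856726-32857295), was at 6.84, 8.15 and 8.01 CPM in MDM and 25.4, 28.2 and 32.7 CPM in LL-MDM (1.93 ± 0.18), with 10.3, 12.4 and 11.4 CPM in MG. Regions in the spans of Mapre2 (2.43), Ttc27 (3.20) and Tasp1 (2.48) behaved alike. At these sites MDM and microglia, with or without lipid, all lay below LL-MDM.

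Below all other libraries lay a region of Cd74 (chr18:60803573-60804094), at 77.5, 82.8 and 90.7 CPM in MDM and 26.2, 26.5 and 25.2 CPM in LL-MDM against 37.6, 28.7 and 27.5 CPM in MG (-1.68 ± 0.14). A region in the Mast4 span (chr13:102905899-102906905) was at 36.3, 37.3 and 36.8 CPM in MDM and 12.7, 9.98 and 10.8 CPM in LL-MDM, with 15.9, 21.6 and 20.3 CPM in MG (-1.79 ± 0.17). In the Frmd4b span, chr6:97294016-97294747 was at 38.3, 34.01 and 34.8 CPM in MDM and 11.8, 13.2 and 9.49 CPM in LL-MDM, with 28.7, 26.4 and 21.2 CPM in MG (-1.60 ± 0.18). Near Spry1, an inhibitor of receptor tyrosine kinases, chr3:37675080-37675669 was at 14.1, 11.7 and 14.1 CPM in MDM and 2.54, 2.93 and 1.96 CPM in LL-MDM (-2.34 ± 0.30). Regions near Sit1 (-1.99), Pik3r6 (-2.19), Rnf14 (-1.99) and Plekha6 (-1.47) were the other named ones.

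Of 4896 loci with at least 5 tested regions, 1441 held higher regions only, 1299 lower only, 1327 both and 829 neither. Hivep3 had 34 of 51 regions higher and 0 lower, Lhfpl2 20 of 27, Magi1 19 of 25 and Tns3 19 of 35. Itpr2, a calcium channel of the endoplasmic reticulum, had 21 of 32 higher and 1 lower. On the other side Arhgap26 had 23 of 64 lower and 1 higher, Cytip 15 of 20 lower, Dapp1 15 of 27 and the kinase gene Fyn 12 of 19, the last 3 with 0 higher. The related channel gene Itpr1 had 16 of 35 lower and 3 higher.

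The difference in MDM was then set against that in microglia, (LL-MDM minus MDM) minus (LL-MG minus MG). This interaction passed the test at 1374 of 15540 loci (8.84%), 460 above 0 (2.96%) and 914 below 0 (5.88%). Without TMM scaling the split was 846 above and 668 below, so the side on which more loci lie depends on the scaling. At the region level it passed at 8469 of 77737 (10.9%), 4925 above 0 (6.34%) and 3544 below (4.56%), and 2254 below against 1695 above without LL-MDM 2. With groups by title, 0 loci and 0 regions passed in edgeR, with 43 loci and 430 regions at an unadjusted p under 0.05. DESeq2, with groups by column name, called 1260 loci.

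All 8 lower class II loci had an interaction below 0 that passed the test. For H2-Aa the log2 difference was -2.01 ± 0.10 in MDM and 0.18 in microglia, an interaction of -2.19 ± 0.17 (adjusted p = 1.36e-07), with MG at 31.1, 21.4 and 25.8 CPM and LL-MG at 30.1, 29.3 and 26.6. For Ciita it was -0.67 in MDM and 0.69 in microglia (-1.37 ± 0.19, adjusted p = 0.000178). Ccr7 (-2.28 ± 0.25), Zfp366 (-2.18 ± 0.24), Irf4 (-1.23 ± 0.20), Tnfsf9 (-1.65 ± 0.20) and Cd86 (-0.83 ± 0.18) were of the same kind. At H2-Aa the LL-MDM level stayed above every microglial library. At Cd74 LL-MDM 1 and LL-MDM 2 lay in their range and LL-MDM 3 just below it (102, 87.1 and 90.3 CPM in MG).

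The lipid genes gave fewer such calls. Of the 10 higher genes of cholesterol export, Gramd1b (0.36 ± 0.10), Rxra (0.53 ± 0.14) and Apoc1 (1.49 ± 0.42) had an interaction above 0. For Abca1 the interaction was 0.26 ± 0.15 (adjusted p = 0.307), with a rise of 0.47 in microglia. For Plin2 it was 0.08 ± 0.17 (adjusted p = 0.823), for Lrp1 -0.02 ± 0.14 (adjusted p = 0.972), for Trem2 0.16 ± 0.27 (adjusted p = 0.763) and for Myo1e 0.02 ± 0.14 (adjusted p = 0.959). Values that miss this test do not show that the lineages respond alike. Gpnmb rose more in MDM than in microglia (0.75 ± 0.20, adjusted p = 0.023), as did Itga9 (0.69 ± 0.12, adjusted p = 0.00182) and Slc40a1 (1.37 ± 0.35, adjusted p = 0.0194). Colec12 went in opposite directions, 1.76 in MDM and -0.82 in microglia (2.59 ± 0.55, adjusted p = 0.00637). Of the called markers of dendritic cells and mast cells, Cd209a, Kit and Clec9a had no interaction past the test. Their interactions were -0.81, -0.86 and -0.72 (adjusted p of 0.707, 0.287 and 0.0536), with log2 differences of -0.76, -1.17 and 0.20 in microglia.

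**Figure D4:**
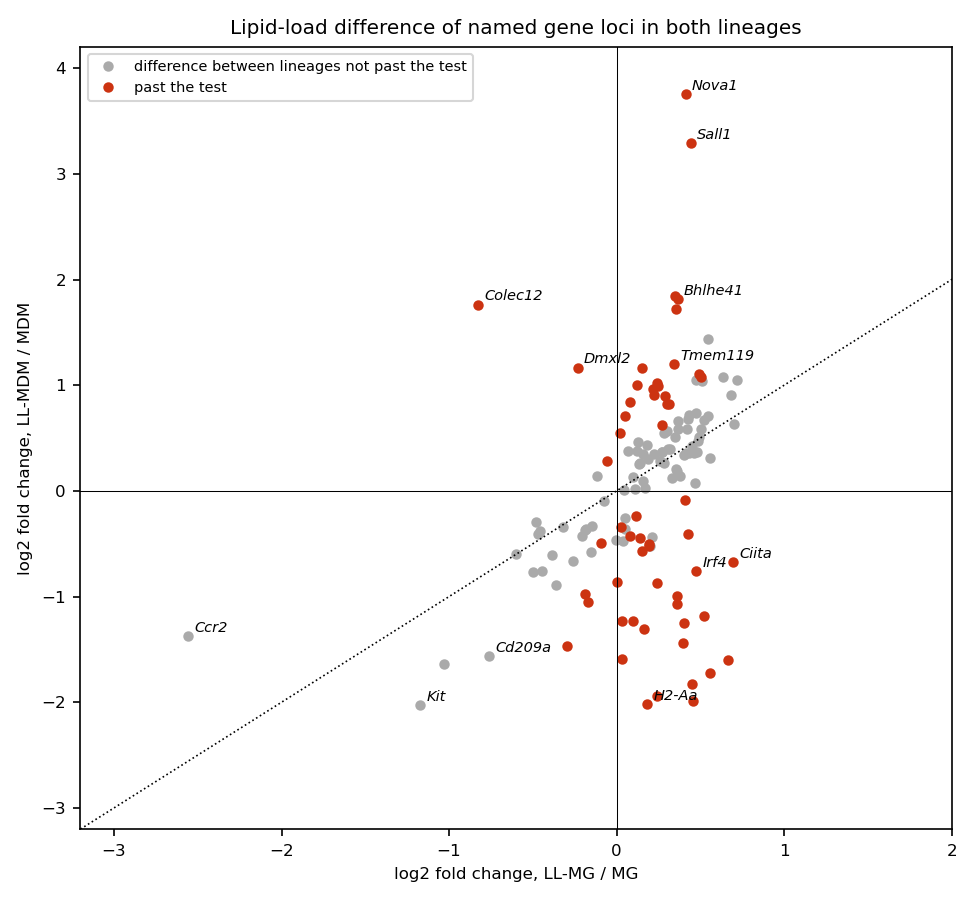
Log2 fold change of the 136 named gene loci in monocyte-derived macrophages (vertical) against that in microglia (horizontal), with equal change on the dotted line. The 56 red points passed the test of the difference between lineages; Sall1 and Nova1 lie far above the line, and H2-Aa and Ciita below it with values above 0 in microglia.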

How the data were processed

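Chromatin accessibility was measured by ATAC-seq on sorted nuclei, with an in-house Tn5 and 2 rounds of 9-cycle PCR per the labels' protocols. The genome build was mm10, and the tools were deepTools 3.5.1, Picard 2.12.0, SAMtools 1.10 and BWA 0.7.17-r1188, per the submitters' processing notes. How regions were called, whether duplicates were removed and whether reads were shifted for Tn5 is not given in the sources used here. Deposited by the authors were whole-number counts per region for 12 libraries, with no normalization.

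From these counts, regions were tested with edgeR 4.0.16 (R 4.3.3; quasi-likelihood, robust, TMM, filterByExpr) over all 12 libraries, with Benjamini-Hochberg adjustment and a threshold of 0.05. Counts were also summed per gene over the span ± 5000 bp, where 11090 of 81215 assigned regions count for more than 1 gene, and these are called shared. All counts are shared at Vsir, Gas6, Gpx4, Etfdh, Olfml3, Clec9a, Isg15, Irf9 and Tnf. The shared part is 95.6% at Blvrb, 93.7% at Cbr2, 90.95% at Fdft1, 80.2% at Tubb3 and 64.8% at Lipe. It is 62.9% at Mvd, 60.6% at Cd80, 52.9% at Zbtb46, 51.1% at Hexa and 49.6% at Trem2. Errors beside log2 fold changes are standard errors. The titles carry a number that may name the mouse, but by column name it nearly coincides with lipid load, so p-values measure the spread between libraries, which may be technical. Named regions and loci were those past the test without overlap between groups and with the smallest p, up to 12 a direction (for regions, also changed by 1 or more on the log2 scale), up to 8 regions a direction outside the other 9 libraries, up to 5 called members per list by p, and the defining members of each list. Further called list members were named after their values were seen. Some named results are not reported here. The members and lists were chosen with earlier results of these data known.

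On simulated counts the test recovered 34 of 100 regions changed by 1 on the log2 scale and 85 of 100 changed by 2, with 24 false calls among 71405. For gene loci it recovered 86 and 95 of 100, with 17 false calls among 15404. The 24 false calls thus stood beside 34 and 85 true ones, and the 17 beside 86 and 95. Only 100 features were changed at each size, while 29.5% of regions and 24% of loci passed in the data. These rates therefore need not carry over to the data. DESeq2 1.42.0, other scalings (limma 3.58.1 for loess offsets), no filter, thinning, a block by run of library names, the titles' groups, the 6 libraries alone, other gene windows and leaving out each library were tried. A block by the titles' number, with groups by column name or by title, was added after the data were seen.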

Additional observations from a re-analysis of the deposited data

Results flagged for a closer look

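The log2 difference between lipid-laden and non-laden cells was not the same in monocyte-derived macrophages and in microglia at 56 of the 136 named gene loci and at 36 of the 38 named regions (edgeR quasi-likelihood test of the interaction, adjusted p under 0.05 over all features). The interaction is the log2 difference in MDM minus that in microglia. The named regions and loci were chosen for a difference in MDM, which is 1 side of the interaction, so these counts are no independent support. With the libraries grouped by their titles, 0 loci and 0 regions passed.

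At the gene loci, 24 were above 0 and 32 below. The values above 0 were Nova1 at 3.34, Sall1 at 2.85, Colec12 at 2.59, Apoc1 at 1.49, Bhlhe41 at 1.45, Dmxl2 at 1.40, Slc40a1 at 1.37, Itih1 at 1.01 and Cerk at 0.88. Next came Tmem119 at 0.86, Lamc1 at 0.78, Pitpnc1 at 0.76, Chd5 at 0.75, Gpnmb at 0.75, Itga9 at 0.69, Ttc39b at 0.66, Oacyl at 0.62 and Ctsd at 0.61. These were followed by Timp2 at 0.57, Rxra at 0.53, Ets2 at 0.52, Cd63 at 0.51, Gramd1b at 0.36 and Gclc at 0.34. The values below 0 were Casr at -2.45, Ccr7 at -2.28, H2-Eb1 at -2.28, Snph at -2.27, H2-Aa at -2.19, Zfp366 at -2.18, Sdcbp2 at -1.84, H2-DMb1 at -1.71 and Tnfsf9 at -1.65. After them came Dthd1 at -1.63, H2-Ab1 at -1.48, Pax5 at -1.44, Ciita at -1.37, Tnfsf4 at -1.35, Cd74 at -1.33, Gpr55 at -1.27, Irf4 at -1.23 and Nectin1 at -1.17. Further ones were Flt3 at -1.12, Gucy2c at -0.88, Etv3 at -0.86, Cd86 at -0.83, Plac8 at -0.79, Itga4 at -0.72, Cd80 at -0.71, Psmb8 at -0.69 and Pecam1 at -0.59. Then came Lipe at -0.50, Nr1h3 at -0.49, Srebf2 at -0.40, Zbtb46 at -0.37 and Txnrd1 at -0.35.

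The named regions are given by their nearest gene. Values above 0 included Mms19 at 4.15, Arhgap15 at 3.21, Ttc27 at 3.01, Manba at 2.86, Zdhhc14 (chr17:5591624-5592041) at 2.70, Galnt1 at 2.69, Tasp1 at 2.06, Gas6 at 2.06 and Scn11a at 1.97. Others were Dnttip2 at 1.97, Lhfpl2 at 1.89, Cd81 at 1.86, Mapre2 at 1.84, Nampt at 1.75, Arap1 at 1.58, Zdhhc14 at 1.54, Gramd1b at 1.53 and Tnfaip3 at 1.32. Those below 0 were Sec61b at -3.13, Ptcd2 at -2.80, Spry1 at -2.74, Zbtb46 at -2.64, Carmil1 at -2.56, H2-Eb1 at -2.25, Sit1 at -2.24, Tmem131 at -2.22 and H2-Aa at -2.12. Alongside these stood Pik3r6 at -2.03, Plekha6 at -1.94, Rnf14 at -1.91, Cd74 at -1.75, Frmd4b at -1.71, Mbnl2 at -1.55, Upb1 at -1.49 and Mast4 at -1.37. At Ly75 and near Nr4a3 the interaction did not pass the test (-2.17 and -2.96).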

How the results depend on the processing

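The counts of regions and loci past the test stayed within 1.5 times under DESeq2, RLE scaling, total counts, loess offsets, no filter on low counts and the 6 libraries alone. Thinned to the smallest total, 5172 regions and 1663 loci passed, with interactions at 1435 and 575 and with 390 regions outside the range of the other 9 libraries. With groups by sample titles, 13759 regions and 2014 loci passed, and interactions at 0 and 0 (430 and 43 at an unadjusted p under 0.05). Leaving out 1 library gave 11750 to 21837 regions and 2196 to 3286 loci, with interactions at 3949 to 6850 regions and 680 to 1122 loci. Of 159 named calls, 95 were lost and 15 turned direction with the titles' groups, as did 2 loci that had not been called. Those that turned were the region in Arhgap15 (-3.48), that near Nampt (-0.22), Itga9 (-0.40), Apoc4 (-0.34), Gpnmb (-0.61), Abca1 (-0.10), Thbs1 (-0.86), Vcan (-0.11), Aurkb (0.21), Nceh1 (-0.15), Rsad2 (-0.29), Fdft1 (-0.0032), Atp6v0a1 (0.12), Arg1 (-0.0562), Tfec (-0.0674), Cd36 (-0.64) and Spp1 (-0.61). Over the gene span alone Aurkb (0.043) and Isg15 (-0.52) turned, and with regions of 1 gene only Blvrb (-0.27). The cause was not tested. Thinning ended 29 of 155 named calls, DESeq2 3 of 159, and leaving out 1 library 6 to 25 of 159.

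With the run of the library names as a replicate block, 22042 regions and 3609 loci passed, with interactions at 7602 and 1166, and 3 of 159 named calls were lost. Deviations from the group means correlated at 0.0533, 0.104 and 0.00361 within runs, and LL-MDM 3 correlated best with MDM 2.

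A replicate block by the number in the titles, added after the data were seen, left 3934 regions and 508 loci past the test, and interactions at 6303 and 971. Of 159 named calls, 72 were lost and 0 turned. The number nearly coincides with lipid load by column name. With groups by the titles and this block, 18495 regions and 2565 loci passed, with interactions at 0 and 0 (615 and 67 at an unadjusted p under 0.05), and 76 of 159 named calls were lost. The calls that turned were then the region in Arhgap15 (-3.04), that near Nampt (-0.0265), Itga9 (-0.33), Apoc4 (-0.27), Gpnmb (-0.58), Abca1 (-0.0595), Thbs1 (-0.82), Vcan (-0.10), Aurkb (0.22), Nceh1 (-0.14), Rsad2 (-0.29), Fdft1 (-0.0019), Atp6v0a1 (0.13), Arg1 (-0.0418) and Tfec (-0.0673), besides Cd36 (-0.64) and Spp1 (-0.61), which had not been called. LL-MDM 1 held a median of 6 counts per tested region.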
